A study of Mus musculus with 2 samples.

Results

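Srcin1, the gene of a synaptic scaffold protein that inhibits the kinase Src, was examined for contacts of its RNA with Rbfox1 in the cytoplasm of mouse neurons. Its reads were those lying wholly within positions 97369500 to 97438000 of chromosome 11 on the minus strand (mm9, the build of all positions below), the interval taken for the gene. This gave 153 reads in 17 clusters out of 64820 reads in 10134 clusters in the anti-Rbfox1 library, and 0 reads out of 569 reads in 233 clusters in the anti-Flag control. A cluster is a group of reads whose crosslink positions lie within 20 nt of the next on the same strand. The gene was chosen by the number of anti-Rbfox1 clusters in a stretch of this interval, so the read and cluster values below are descriptions without tests. The boundaries of Srcin1 were not checked against an mm9 annotation, which was not used here. The annotation at hand, of another build, places the gene on the minus strand too.

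The study made iCLIP libraries from forebrain neurons that had been in culture for 14 days in vitro, 1 with anti-Rbfox1 antibodies and 1 with anti-Flag antibodies as the control. Strain, genotype and the number of cultures or animals behind each library are not stated in the labels. Both cultures were irradiated with ultraviolet light of 254 nm at 500 mJ/cm2, opened for 1 min in a buffer with 0.1% Triton X-100, and precipitated from the released cytoplasmic material. In iCLIP, ultraviolet light links a protein to RNA it touches, and reverse transcription of the recovered fragment tends to stop at the link, so the base before the start of a read is taken as the crosslink position. There is 1 library per antibody and hence no replicate; the 95% intervals are exact Clopper-Pearson intervals and cover counting error only.

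Srcin1 encodes p140Cap, also called SNIP, an adaptor protein of dendritic spines and presynaptic terminals that binds the kinase Csk and holds Src in check. Src in turn phosphorylates synaptic proteins, NMDA receptor subunits among them. Rbfox1 binds RNA in neurons and recognises the word GCATG in RNA (GCAUG in RNA letters). It is best known for directing splicing in the nucleus, and a form of it that resides in the cytoplasm binds the 3′ untranslated regions (3′ UTRs) of messenger RNAs.

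The files hold positions and no bases, so the sequence of Srcin1 came from the GENCODE M21 transcript Srcin1-203, which has 7054 nt and ends in a 3′ UTR of 3174 nt, the longest annotated for the gene. GCATG was searched on the sense strand of this UTR, since the RNA is single-stranded, and was found 7 times. All 7 matches are printed 5′ to 3′ with 12 nt on either side, because they are the places where the known Rbfox word stands in this UTR. GCATG is in capitals, and the name gives the position of its G counted from 1 at the first base after the stop codon.
UTR position 115: aggttgcaggggGCATGgccctttgccct
UTR position 1072: ttttcagggaagGCATGagatgcgacgac
UTR position 1334: ttggagcacaaaGCATGtaagcacagagg
UTR position 2336: gtgtgtgcacatGCATGggttgtgtgtgc
UTR position 2600: gagtactcgtgtGCATGtgtgtgttccat
UTR position 2715: ccacccccagctGCATGcgcctcgccgct
UTR position 2823: gctgtgatactcGCATGgggggttctctc

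The matches at 2336, 2600 and 2715 are preceded by T and so also form the longer word TGCATG. The last 4 matches lie within 839 nt of the 3′ end of the transcript, and the largest distance between neighbouring matches is 1002 nt. Among the 2485 other genes whose longest annotated 3′ UTR has at least 3174 nt, 95.2% hold GCATG in the first 3174 nt, with a median of 3 matches and quartiles of 2 and 4. TGCATG occurs in 66.5% of them, with a median of 1 match. The reverse complement CATGC stands 5 times in the Srcin1 UTR and a median of 3 times in the others. It overlaps GCATG where a C follows, as at 2715, or where CAT precedes, as at 2336, so the counts of these words are not independent. The presence of the word is thus common in UTRs of this length. As many matches as in Srcin1, or more, were found in 5.55% of the others for GCATG, 13.6% for TGCATG and 22.3% for CATGC. These shares set the whole Srcin1 UTR, with its 3′ end, against the first part of longer UTRs, whose 3′ ends were left out. A match is a word in the sequence and not a measured site. No mm9 genome was at hand and no coordinates were carried between builds, so the crosslinks below were not placed on this UTR and their distance to the matches is not given.

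The anti-Rbfox1 reads of Srcin1 were concentrated in a short piece of the interval. Of the 153 reads, 147 (96.1%, 95% interval 91.7 to 98.5) lay in a stretch from 97370782 to 97374212, which takes up 5.01% of the interval. The stretch has 3431 nt, and 789 of them (23.0%) were covered by at least 1 read. On the minus strand the transcript runs from high to low positions, so the stretch lay near the downstream end of the interval. It held 0.227% of all anti-Rbfox1 reads (0.192 to 0.266), at 112 distinct crosslink positions in 14 clusters. Its reads were between 16 and 61 nt long with a median of 29 nt, against a median of 28 nt in the library. RNA levels were not measured, so a more abundant transcript and one that is contacted more often cannot be told apart.

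The other 6 reads formed 3 separate clusters of 2 reads each, all upstream of the stretch. They lay at 97398532 to 97398589, at 97411993 to 97412028 and at 97427904 to 97427936. The nearest of them was 24319 nt away from the stretch, and the others followed after 13403 and 15875 nt. In the first of these pairs the crosslinks were neighbouring bases, and in the others they lay 6 and 14 nt apart. Among the 10134 clusters of the library none held fewer than 2 reads. Beyond the interval, the next anti-Rbfox1 read on the minus strand was 113042 nt upstream and 347250 nt downstream. The plus strand of the interval held 0 anti-Rbfox1 reads, which by the limit of 3 counts allows up to 0.00463% of them. On the side of lower positions, the nearest plus-strand cluster, of 4 reads, lay 5787 nt outside. The plus strand on the side of higher positions was not searched.

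The control had 0 reads on either strand of the interval, where 3 counts, the limit that a count of 0 allows, would be 0.527%. The anti-Rbfox1 share of the whole interval, 0.236% (0.200 to 0.276), is under this limit. At an equal share, 1.34 control reads would have been counted, so a difference between the antibodies was not detectable at this depth. The control had 65 reads on chromosome 11, 29 of them on the minus strand, and the nearest of these was 510270 nt from the interval.

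**Figure D1:**
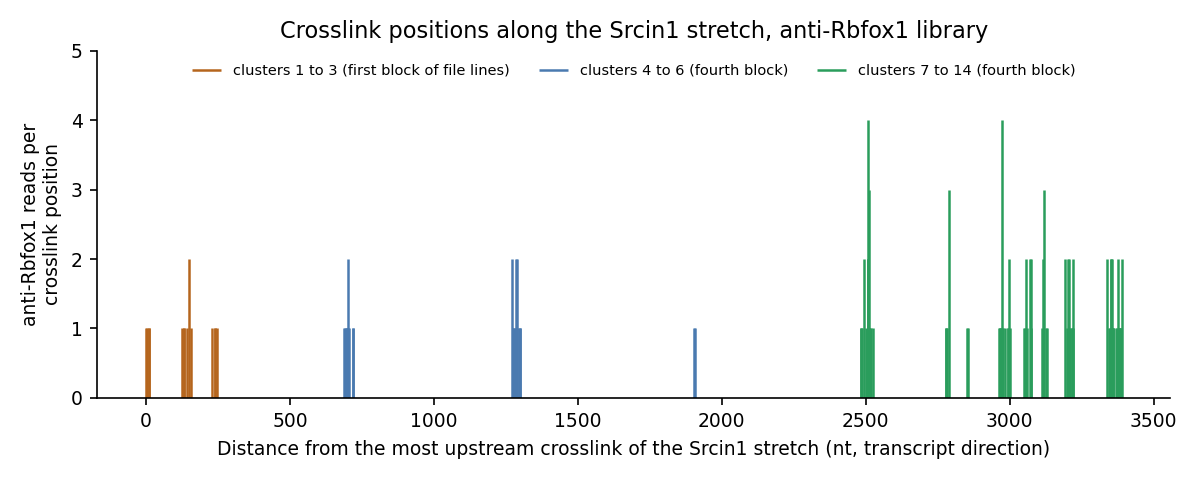
Anti-Rbfox1 reads at each crosslink position of the Srcin1 stretch (y axis, reads) against the distance from the most upstream crosslink in nt in the direction of the transcript (x axis); colours mark 3 runs of clusters by their place in the deposited file. The 8 clusters at the downstream end hold 104 of the 147 reads, and no position holds more than 4.

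Numbered from the upstream end, the 14 clusters of the stretch were described in 3 runs, divided by their place in the deposited file and not by the gaps between them. Clusters 1 to 3 lay within 265 nt, from 97373948 to 97374212, and held 15 reads (10.2% of the stretch, 5.82 to 16.3). Clusters 4 to 6, 423 nt further on, were spread over 1254 nt, from 97372271 to 97373524, and held 28 reads (19.0%, 13.0 to 26.3). Clusters 7 to 14, after another 541 nt, lay within 948 nt, from 97370782 to 97371729, and held 104 reads (70.7%, 62.7 to 78.0). Per 100 nt this was 5.66 reads in the upstream run, 2.23 in the middle and 11.0 at the downstream end. The downstream run had the highest value and the middle run the lowest. The upstream run stands in another part of the file, where read counts are not comparable, so its rank is not read. The middle run contains gaps of 516 and 580 nt, so its density depends on this division. By position alone, a split at gaps of over 500 nt gave 4 parts, namely clusters 1 to 4, cluster 5, cluster 6 and clusters 7 to 14, and the last of these is the same as the downstream run.

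The division into runs came from the order of the file. Its lines fall into 11 blocks in which the chromosomes are listed anew, and no label says what a block is. Clusters 1 to 3 and the 3 separate pairs were in the first block, and clusters 4 to 14 in the fourth. Within the fourth block, clusters 4 to 6 were listed ahead of clusters 7 to 14, against the order of positions; such a step back on a strand occurred 25 times among the 4980 clusters of that block. Clusters of different blocks stood together in 160 of the 1365 stretches with at least 2 clusters (11.7%). Among the 14 stretches with at least 10 clusters, they did so in 4, that of Srcin1 included.

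The blocks also differed in how often reads shared a 3′ end. In the first, none of its 3643 minus-strand reads shared a 3′ end, and the 15 reads of clusters 1 to 3 had 15 different 3′ ends. In the fourth block 12567 of 23323 minus-strand reads shared a 3′ end with another. In clusters 4 to 14 this was so for 52 of the 132 reads, a smaller share. Read counts of the runs are thus not alike, and the cause was not tested. With 1 read kept per 3′ end, the runs held 15, 20 and 77 reads, or 5.66, 1.59 and 8.12 per 100 nt, and their order was the same. Whether this makes the blocks comparable was not tested.

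**Figure D2:**
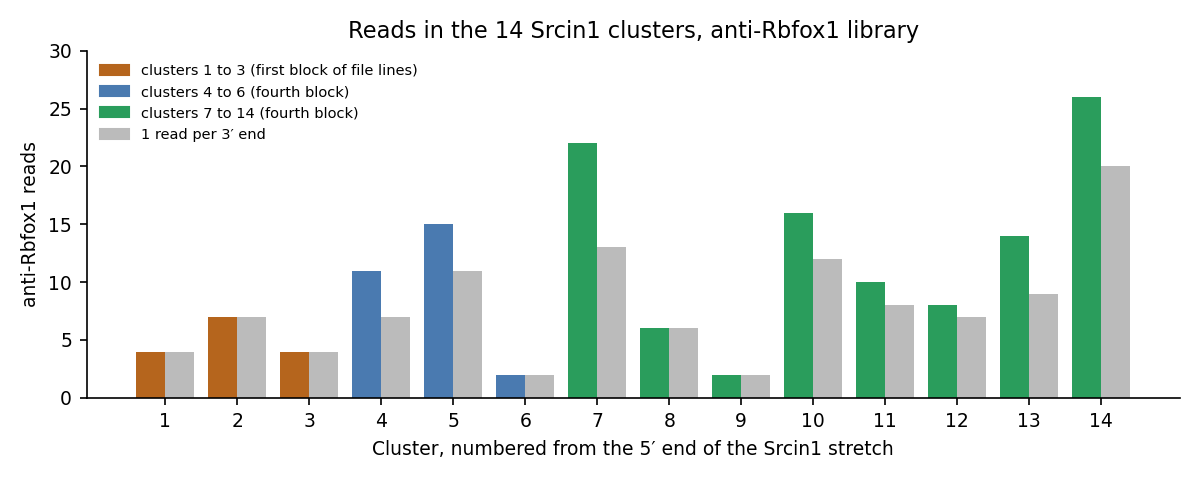
Anti-Rbfox1 reads (y axis) in each of the 14 clusters of the Srcin1 stretch, numbered from its upstream end (x axis); coloured bars count all deposited reads and grey bars 1 read per 3′ end. Cluster 14 is the highest by both counts, with 26 and 20 reads, followed by cluster 7 with 22 and 13.

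Reads were spread over the clusters rather than gathered in a single one. The highest, cluster 14 at the downstream end of the stretch, held 26 reads (17.7% of the stretch, 11.9 to 24.8), and the lowest held 2, with a median of 9. Of the 14 clusters, 7 held at least 10 reads, and these had 114 of the 147 reads (77.6%). In the whole library 12.3% of clusters reached 10 reads. In the first block 1.87% did, and in the fourth, which held all 7, 22.0%. Nothing is read from this contrast, since the stretch was chosen for its clusters in the same library.

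Cluster 14 lay from 97370782 to 97370873, with 26 reads at 20 crosslink positions over 51 nt. Its crosslink positions were spread out, with no position above 2 reads. Of the 10134 clusters in the library, 389 held more reads than cluster 14. Cluster 7, from 97371653 to 97371729, held 22 reads at 14 positions over 44 nt, and 4 of them shared the crosslink position 97371704. The base covered most deeply in the stretch, by 19 reads, was in this cluster. Cluster 10, from 97371166 to 97371247, held 16 reads at 12 positions, 4 of them at 97371238. These 2 positions were the only ones in the stretch with 4 reads; 3 had 3 reads, 23 had 2 and 84 had 1.

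Cluster 5, from 97372888 to 97372940, held 15 reads at 12 positions over 28 nt, and was the highest outside the downstream run. Cluster 13, from 97370959 to 97371018, held 14 reads at 10 positions over 27 nt. Cluster 4, from 97373457 to 97373524, held 11 reads at 10 positions, with the longest reads by median among the clusters of at least 10 reads, 38 nt. Cluster 11, from 97371097 to 97371161, held 10 reads at 7 positions, with a median length of 24.5 nt. The remaining clusters held 8 reads (cluster 12), 7 (cluster 2), 6 (cluster 8), 4 (clusters 1 and 3) and 2 (clusters 6 and 9). Both clusters of 2 reads were in the fourth block, 1 in the middle run and 1 in the downstream run.

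Several clusters held sets of reads that ended at the same base, which was common in the fourth block as a whole. The 3 clusters with the largest such sets are given here. No reads of a library shared both ends, so reads with a common 3′ end have different crosslink positions by construction of the file. In cluster 7, 12 of the 22 reads shared a 3′ end with another, and 6 of these ended at 97371673, with crosslinks between 97371693 and 97371706. In cluster 13, 6 of the 14 reads ended at 97370973, with crosslinks between 97370993 and 97371010. In cluster 14, 9 of the 26 reads shared a 3′ end, and the largest set, of 4 reads, ended at 97370834 with crosslinks between 97370857 and 97370874. The 3 clusters had 13, 9 and 20 different 3′ ends.

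**Figure D3:**
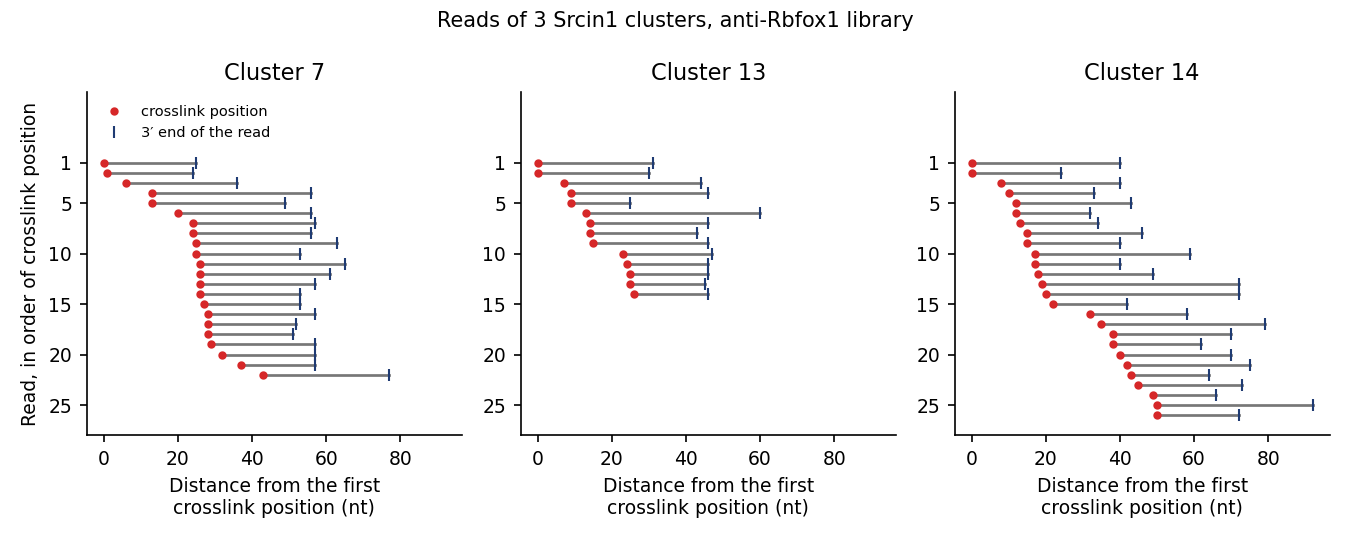
Each line is an anti-Rbfox1 read of cluster 7, 13 or 14, drawn from its crosslink position (red) to its 3′ end (blue) by distance in nt from the most upstream crosslink of the cluster (x axis) and sorted by crosslink position (y axis). In clusters 7 and 13, 6 reads each end at a common base, and in cluster 14 at most 4 do.

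Neighbouring clusters were separated by a median of 80 nt between their outer bases. Of the 13 gaps, 8 were under 100 nt and 3 over 500 nt, the largest being 580 nt. The reads of clusters 11 and 12 overlapped by 4 bases, and clusters 10 and 11 were 4 nt apart. The 3 gaps over 500 nt lay on either side of clusters 5 and 6, so these were the isolated clusters of the stretch. Clusters were between 35 and 92 nt wide, with a median of 54 nt.

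Across the library, clusters whose outer bases lay within 1000 nt on a strand were joined into 7297 stretches. That of Srcin1 came after only 2 others by number of clusters, which is how it was found, and the next below it held 13 clusters. By reads, 59 stretches stood above it. It was set beside the 13 other stretches with at least 10 clusters, which are given by position because no gene annotation of mm9 was used here. Its highest cluster took 17.7% of its reads, and in the 13 others this share had a median of 27.6% and ranged from 12.1 to 49.1%. Its length of 3431 nt was above their median of 2596 nt. Reads are not comparable between blocks, so reads per cluster were set beside those of the 6 stretches wholly in the fourth block, a comparison added after the data were seen. Their medians per stretch ranged from 8 to 14.5 reads, and the 11 clusters of Srcin1 in that block had a median of 11. The shares given above mix blocks. Within the fourth block alone, the highest Srcin1 cluster took 19.7% of the reads, and in these 6 stretches the share ranged from 13.3 to 37.7%. Of all 14 stretches, 13 held no control read, that of Srcin1 among them. The same share over all 7297 stretches was not counted. The control had only 569 reads, in 229 stretches of its own, so nothing is read from this count.

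**Figure D4:**
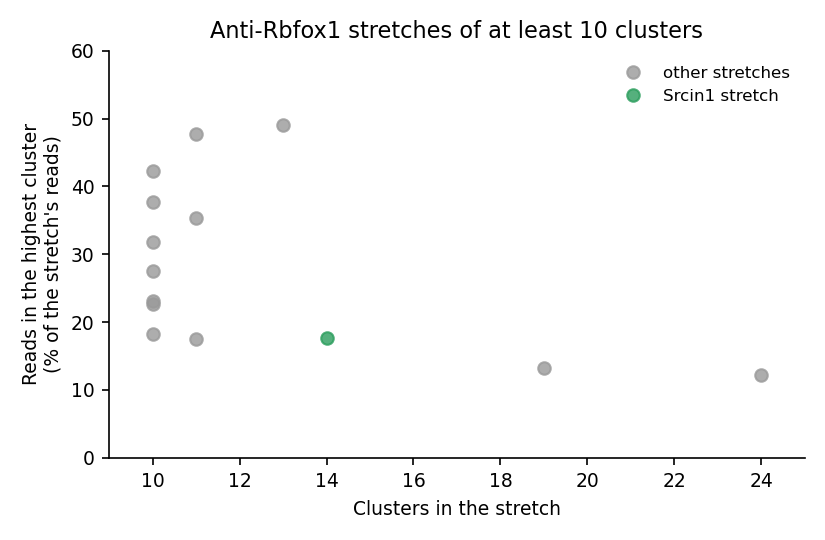
Share of a stretch's reads in its highest cluster (y axis, percent) against its number of clusters (x axis) for the 14 anti-Rbfox1 stretches with at least 10 clusters, each a point. Stretches of different blocks are shown together. The Srcin1 stretch (green) lies at 14 clusters and 17.7%, and the other points range from 12.1 to 49.1%.

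The 2 stretches with more clusters were on the minus strand too. That on chromosome 15, from 79654393 to 79658390, had 24 clusters with a median of 4 reads, and its highest held 12.1% of its 140 reads. All its clusters were in the first block, where minus-strand reads share no 3′ end. Its reads per cluster and the share of its highest cluster are thus not comparable with those of Srcin1 in the fourth block. That on chromosome 2, from 6462920 to 6467026, lay in the fourth block and had 19 clusters with a median of 8 reads, the highest with 13.3% of 166 reads.

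By the distance in log2 reads, log2 clusters and log2 length in this library, the stretch on chromosome 2 was also the one most like that of Srcin1, at 0.541. The next were a plus-strand stretch of chromosome 17, from 87054439 to 87057242, at 0.570, and a minus-strand stretch of chromosome 13, from 110844401 to 110847031, at 0.691. Each of these had 10 clusters and a highest cluster of 58 reads, which was 37.7% of 154 reads on chromosome 17 and 31.9% of 182 on chromosome 13. They resembled the Srcin1 stretch in size and held a larger share of their reads in a single cluster, but had fewer clusters. The stretch on chromosome 2, with more clusters, held a smaller share, 13.3%. The share was not adjusted for the number of clusters, so nothing is read from these differences. The stretch on chromosome 13 overlapped 2 control reads and the others 0. With only 569 control reads in all, nothing is read from this either.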

How the data were processed

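The deposited files list 1 aligned read per line with its first base, last base, strand and 1 more position. Bowtie and mm9 are named in the submitters' processing notes; no version, mismatch setting, removal of PCR copies or filter is stated there. The extra position was the base before the read's 5′ end in all 64820 anti-Rbfox1 and 569 anti-Flag reads as deposited, and served as the crosslink position. In neither library did 2 reads share start, end and strand, and every cluster had at least 2 positions, so the reads appear collapsed and filtered, and counts are not molecules. Amplified reads are not independent, so intervals and the limit of 3 counts cover counting error only.

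Crosslinks within 20 nt were joined into clusters and clusters within 1000 nt into stretches. Only Srcin1 is named as a gene; all its clusters are accounted for, those of at least 10 reads in full, and the compared stretches are the 2 with most clusters and the 3 nearest in log2 reads, clusters and length. The gene, interval and lists were chosen with earlier results of these data known. No test was run, because the antibodies have 1 library each. The clustering was run on simulated reads with well-separated planted clusters. This checks the code and not how clusters as close as some in Srcin1 are divided. The motif within a set distance of crosslinks had been planned and needs an mm9 genome; words in the GENCODE M21 (GRCm38) transcript were counted instead. The software was Python 3.11.15 with pandas 2.3.3, numpy 2.4.6, scipy 1.17.1 and matplotlib 3.10.9.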

Additional observations from a re-analysis of the deposited data

How the results depend on the processing

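Of 28 alternative values for the Srcin1 interval and stretch, 25 stayed within the interval of the value or within 1.5 times of it, and 3 moved. The 153 reads on the minus strand stood against 0 on the plus strand. The 14 clusters became 7 when clusters of fewer than 5 reads were dropped before joining, since without cluster 6 a gap of over 1000 nt split the stretch and the larger part was counted, and 8 when clusters were joined within 500 nt, where the stretch broke into 4 parts. Both follow from the construction of the setting. The 9 values with 1 read per 3′ end, with near-identical reads counted as 1 for the median, or from the fourth block alone were chosen after the data were seen. The share of stretch reads in the highest cluster, 17.7%, lay between 17.7% and 19.7% in all its alternatives. The motif around crosslinks was not run. No paired analysis was possible because there is only 1 library for each antibody. The 569 control reads limit any comparison at a single gene.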
